A study of Mus musculus with 141 samples.

Results

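The genes described here are 79 genes of the cilium, read in single lung cells, of which 15 were ciliated, another 6 also carried the ciliary program and 120 did not. They are all rows of the count table whose symbol starts with Dnah, Dnaic, Dnal, Dynlrb, Tekt, Rsph, Ift and a digit, Bbs, Spag, Cfap or Tctn, and that have at least 1 read in 3 cells. The symbols match 82 of 17136 rows, and *Bbs10*, *Bbs12* and *Dnah8* have fewer cells with a read. All 14 reads of *Bbs10* lay in 1 ciliated cell. The cells came from 1 *ACID;R26tdTomato* mouse of strain 129SV, aged 4 months. In this mouse Cre is made from the *Aqp5* locus and switches on the red protein tdTomato for good, so a cell that ever used *Aqp5* stays marked. The sorted cells carried E-cadherin and tdTomato and lacked CD31 and CD45, and were captured and lysed one by one on a Fluidigm C1 chip. The labels call every cell alveolar type 1, although the 15 ciliated cells met a marker gate for another cell type. One mouse is 1 sample, so cells are not replicates and no test was run. A level is given in CPM, the reads of a gene scaled to a total of 1000000 reads over a class of cells. Ranges in brackets are exact 95% intervals, Poisson for CPM, Clopper-Pearson for shares of cells and binomial for ratios. They cover counting error only, since reads without molecular identifiers are not independent molecules.

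A motile cilium is built around a ring of doublet microtubules with a central pair, the axoneme. Axonemal dyneins form the outer and inner arms that slide the doublets, radial spokes link the doublets to the central pair, and tektins and other inner proteins stiffen the doublet wall. Intraflagellar transport (IFT) carries parts along the cilium in 2 complexes, IFT-B with kinesin toward the tip and IFT-A with dynein back to the base. The Bbs proteins form the BBSome, an adaptor for membrane proteins, and the tectonics belong to the transition zone, the gate at the base. Transport and the transition zone also serve the single non-motile primary cilium of many cell types, whereas the beating apparatus belongs to motile cilia. In the airway, ciliated cells use their motile cilia to move mucus, and *Foxj1* and RFX factors drive the program.

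A cell was called ciliated when at least 3 of the 6 markers *Sntn*, *Fam183b*, *Ccdc153*, *Tppp3*, *Odf3b* and *Ccdc113* exceeded 100 CPM. This gate took 15 cells, and all other columns of the table were the comparison. None of the 6 markers is one of the 79 genes. *Foxj1*, the forkhead factor of motile ciliogenesis, was not used by the gate and had a read in 12 of 15 ciliated cells. Its level was 191 CPM (182 to 201) in these cells and 2.78 CPM (2.39 to 3.21) in the other columns, or 2.16 CPM without the 6 cells described next. The cells held 91402 to 2170760 total reads, with a median of 419970. The share of reads on mitochondrial genes was under 15% in 92 cells of the series and in 13 of the 15 ciliated cells. Of the ciliated cells, 4 also met the gate of another class, and the one at chip column 9 and row 33 met the AT1, AT2 and club gates as well. Markers of fibroblasts (5 of 5), *Ptprc* of immune cells and *Syp* of neuroendocrine cells were at 0 in all ciliated cells. Of 5 endothelial markers, *Pecam1* and *Cdh5* had reads there, up to 59.4 CPM together in 1 cell. *Top2a*, a gene of dividing cells, reached 382 CPM in 1 ciliated cell, and club markers reached 395927 CPM in 1 ciliated cell. Without the 4 ciliated cells that met another gate, 65 genes were at least 4-fold higher and the median log2 ratio was 3.86, with *Bbs4* (1.88) and *Dnah9* (0.77) falling below the limit. The part of the endothelial and dividing-cell markers in the results was not tested.

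The gate did not take every cell with this program. Of 30 further genes of the motile axoneme, neither among the 79 nor among the gate markers, the 15 ciliated cells had 7 to 16 over 100 CPM. Another 6 cells had 5 to 8, and the remaining 120 cells had at most 1. Among the 6, gate markers over 100 CPM numbered 2 in 3 cells, 1 in 2 cells and 0 in 1 cell. In all 6 the mitochondrial share was high, 18 to 33.3%, against 4.07 to 21.1% in the ciliated cells. They are called the 6 axoneme cells here and were picked after the data had been seen, by genes other than the 79. They held 1.93% of the reads of the other columns but 24.9% of the reads of the 79 genes there. A log2 ratio is therefore given for all other columns and, where leaving out the 6 moves it by at least 0.1, also without them.

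**Figure D1:**
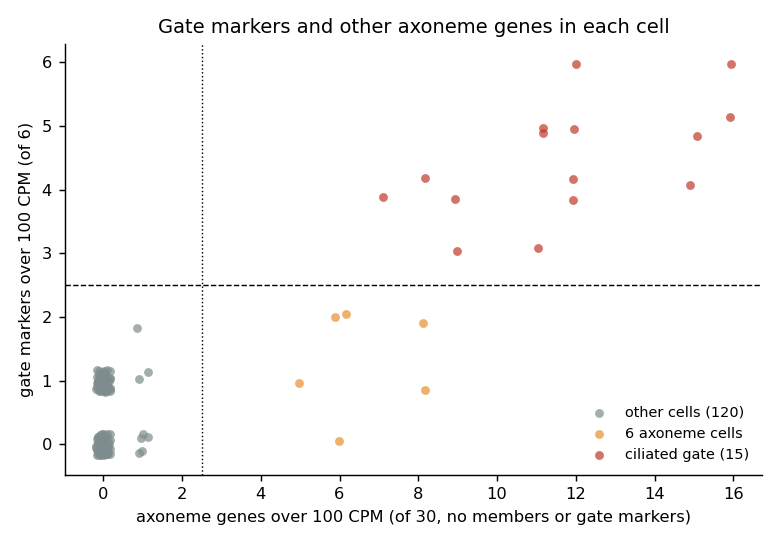
Each point is 1 cell, with the number of 30 axoneme genes over 100 CPM on the x axis and the number of 6 gate markers over 100 CPM on the y axis, both moved by a small random amount so that points do not cover each other. The dashed line is the gate and the dotted line the limit that picked the 6 axoneme cells (orange), which lie at 5 to 8 axoneme genes and at most 2 gate markers, apart from the 120 other cells (grey).

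Many promoters of these genes carried a short sequence of the kind bound by RFX factors. In the RefSeq promoters of GRCm38.p6, which run from 250 bases before to 50 bases after a start site, 68 of the 79 genes have an entry. The half-site GTTGCC, on either strand, lay in 29 of 68 genes (42.6%), against 14.1% of all 27025 genes with a promoter and 15.8% of the 8727 tested genes with one. It was present in 19 of the 41 genes that were at least 16-fold higher in ciliated cells without the 6 axoneme cells, in 7 of 18 that were 4-fold to 16-fold higher and in 3 of 9 below 4-fold. The full palindrome, the X-box, was searched in 1 strict form, GTTNCC and GGNAAC with 1, 2 or 3 bases between. It overlaps the half-site where N is G. This form lay in 4 of 68 genes (5.88%), against 0.903% of all genes. It lay in none of the 41, in 2 of the 18 and in 2 of the 9. Looser forms were not searched, and the windows of *Dynlrb2* and *Dnaic2* below, both among the 41, each hold a run 1 letter away from it. The forkhead core TGTTTAC lay in 2 of 68 (2.94%), against 4.05% of all genes. A match is a run of letters and not a measured site.

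Windows of *Dynlrb2*, *Dnaic2* and *Tekt1* and of 3 transport or transition zone genes are shown because they carry the half-site or X-box close to the start site. They come from genes on both sides of a 16-fold ratio, and none is from a gene lower in ciliated cells. In the windows shown, capitals mark GTTGCC, its reverse complement GGCAAC or, in the last 3, the whole X-box, and each is written 5′ to 3′ on the strand of its gene. These windows lie at chr8:116504949-116504984 (plus strand, *Dynlrb2*), chr11:114727378-114727413 (plus, *Dnaic2*), chr11:72361897-72361932 (minus, *Tekt1*), chr16:49699219-49699261 (plus, *Ift57*), chr19:40612344-40612386 (minus, *Tctn3*) and chr3:36613482-36613525 (minus, *Bbs7*). The marked letters begin 51, 26, 35, 60 and 140 bases before the start site for the first 5, in that order.
Dynlrb2: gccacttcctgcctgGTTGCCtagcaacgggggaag
Dnaic2: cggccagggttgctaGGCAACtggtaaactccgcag
Tekt1: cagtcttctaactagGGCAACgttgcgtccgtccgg
Ift57: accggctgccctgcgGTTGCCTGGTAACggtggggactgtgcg
Tctn3: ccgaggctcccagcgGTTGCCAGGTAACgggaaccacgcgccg
Bbs7: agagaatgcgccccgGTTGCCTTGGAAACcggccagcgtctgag
The 3 upper genes were over 16-fold higher in ciliated cells once the 6 axoneme cells were left out, and the 3 lower ones had log2 ratios of 2.26 (*Ift57*), 2.94 (*Tctn3*) and 1.86 (*Bbs7*).

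Most of the 79 genes were far higher in ciliated cells. Summed over the 79 genes, a ciliated cell had 4974 CPM at the lowest, 19825 CPM at the median and 27035 CPM at the highest. The 6 axoneme cells had 11176, 18780 and 27198 CPM, inside that range or just above it, and the highest of the other 120 cells had 5774 CPM. The lowest ciliated cell, the one at chip column 9 and row 33 that met 4 gates, lay below that cell and the other 14 lay above it. Of the 79 genes, 67 (84.8%) were at least 4-fold higher in ciliated cells than in the other columns, where 14.3% of the 14358 genes tested were. Only *Ift140*, *Cfap97* and *Spag5* (3.80%) were at least 4-fold lower, against 35.2% of all genes tested. The median log2 ratio was 3.68, and that of all genes tested was -0.62. Without the 6 axoneme cells 68 genes were at least 4-fold higher, against 14.4% of all genes tested, and the median log2 ratio was 6.12, against -0.60.

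**Figure D2:**
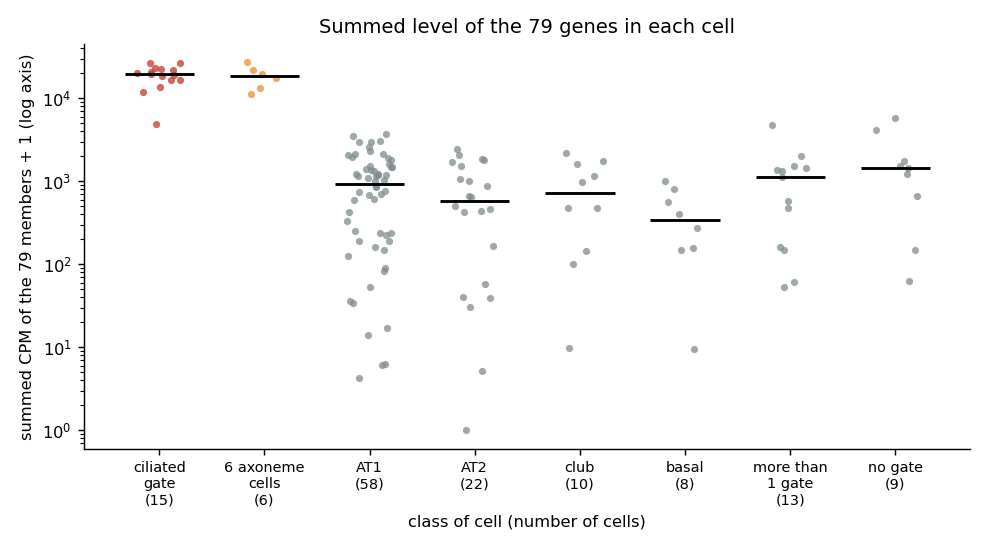
Summed CPM of the 79 genes plus 1, on a log axis, in each cell by class, with the number of cells in parentheses and the class median as a bar. The classes on the right hold the 120 cells outside both groups, with every remaining cell of the basal gate counted as basal. Of the 15 ciliated cells 14 lie above all 120 other cells, as do the 6 axoneme cells.

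The 11 subfamilies differed in the size of the ratio and in how far the 6 axoneme cells changed it. The median log2 ratio was 6.31 for Dnah, 6.30 for Dnaic, 5.08 for Cfap, 5.03 for Rsph and 3.49 for Tekt with all other columns, and 9.22, 9.94, 8.92, 9.78 and 8.89 in that order without the 6 cells. It was 2.82 for Tctn, 2.81 for Ift, 2.70 for Dnal, 2.64 for Spag and 2.34 for Bbs, and 2.94, 2.99, 2.89, 2.94 and 2.59 without them. The 2 Dynlrb genes had ratios of opposite sign. A symbol is not a role, and the Dnal and Spag genes include parts of the axoneme that are described below with the structure they belong to. The 6 axoneme cells held over 50% of all reads outside the gate for 33 of the 79 genes.

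**Figure D3:**
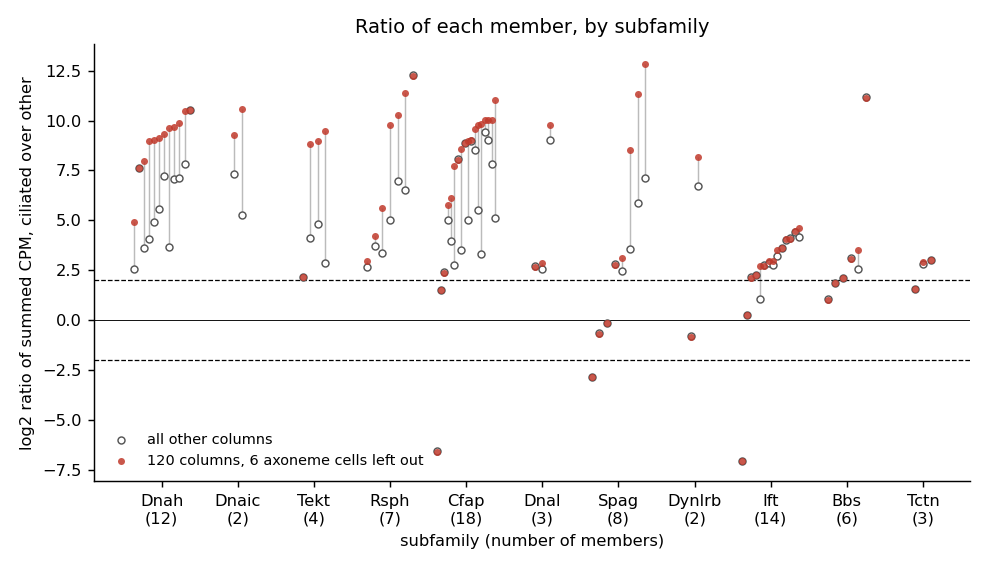
The log2 ratio of summed CPM in 15 ciliated cells over other columns for each of the 79 genes, by subfamily, with all other columns (open) and with the 6 axoneme cells left out (red). Dashed lines are 4-fold, and a gene with 0 reads in ciliated cells is plotted at 3 counts. Leaving out the 6 cells raises the log2 ratio by over 1 for 10 of 12 Dnah, 2 of 2 Dnaic, 3 of 4 Tekt, 4 of 7 Rsph, 9 of 18 Cfap, 3 of 8 Spag and 1 of 2 Dynlrb genes, for 1 of 14 Ift genes, and for 0 of 3 Dnal, 6 Bbs and 3 Tctn genes.

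All 12 heavy chains of axonemal dynein, the Dnah motors, were at least 4-fold higher, with a median log2 ratio of 6.31, or 9.22 without the 6 axoneme cells. *Dnah6*, an inner arm motor, was read in 13 of 15 ciliated cells at 538 CPM (522 to 554). Its median ciliated cell had 492 CPM and the highest 1963, while the highest of the 120 other cells had 24.2. The log2 ratio was 7.12, and 9.90 without the 6. *Dnah12*, also of the inner arm, had 402 CPM (388 to 416) in ciliated cells and reads in all 6 axoneme cells, where it ranged from 728 to 1788 CPM. Its log2 ratio therefore stood at 4.09 with all columns and at 8.97 without the 6. *Dnah1* had 313 CPM in ciliated cells, in 8 of 15 cells. Of the outer arm motors, *Dnah5* had 230 CPM (220 to 241) and *Dnah11* 216 CPM (206 to 226), with log2 ratios of 7.05 and 5.57, and of 9.67 and 9.11 without the 6 cells. *Dnah9*, the outer arm motor of the distal cilium, had the lowest ratio of the 12. It had 102.6 CPM (95.7 to 109.8) in ciliated cells, a log2 ratio of 2.58 with all columns and of 4.94 without the 6. Of its 214 reads left outside, 206 lay in 1 club cell with 218 CPM. By arm, the 9 inner motors had a median log2 ratio of 7.12 and the 3 outer motors of 5.57, and of 9.33 and 9.11 without the 6 cells. *Dnah7a*, *Dnah7b* and *Dnah7c* are 96.8 to 97.3% identical over their transcripts, so their split is uncertain, and together they count as copies of 1 motor. *Dnah2* rests on 1 cell, with 98.4% of its ciliated reads, and it was lower in ciliated cells when a gate of 4 markers or of 200 CPM put that cell among the others.

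The intermediate and light chains of the arms moved with the motors only in part. *Dnaic2*, an intermediate chain of the outer arm, had 385 CPM (372 to 399) in ciliated cells and 9.83 CPM in the other columns, a log2 ratio of 5.29. Of its 640 reads there all but 16 lay in the 6 axoneme cells, and without them the log2 ratio was 10.59. *Dnaic1* had 58.6 CPM in 4 of 15 ciliated cells, and its log2 ratio was 7.31, or 9.29 without the 6. *Dnali1*, a light intermediate chain of the inner arm, had 293 CPM (281 to 305) and a log2 ratio of 9.05, or 9.80 without the 6. *Dnal1* and *Dnal4*, light chains, reached 60.9 and 111.4 CPM, with log2 ratios of 2.58 and 2.70, the first 2.89 without the 6. *Dnal4* had reads in 10 of the 120 other cells, up to 1602 CPM, so single cells of the 2 groups overlapped. *Dnaic1*, *Dnali1* and *Dnal1* overlap a coding gene on the opposite strand, and the strand setting of the counting is not given in the sources used here. Of the 79 genes, 16 overlap another coding gene, the others being *Bbs4*, *Cfap43*, *Cfap61*, *Cfap97*, *Dnah3*, *Dnah11*, *Ift74*, *Ift140*, *Rsph9*, *Rsph10b*, *Rsph14*, *Spag17* and *Tctn1*. *Cfap43* and *Rsph10b* overlap a gene on their own strand, *Itprip* and *Pms2*.

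Among the radial spoke and tektin genes, *Rsph1* and *Tekt1* were read in every ciliated cell. *Rsph1*, a spoke head protein, had 6.75 CPM at the lowest, 1100 CPM at the median and 9662 CPM at the highest. Its level was 1956 CPM (1925 to 1986), and without the 6 axoneme cells the 120 others had 1.58 CPM and none above 64.6 CPM, a log2 ratio of 10.27, against 6.97 with all columns. The groups overlapped only through the lowest ciliated cells. *Rsph9* and *Rsph4a*, also of the spoke head, had 375 and 151 CPM in ciliated cells and log2 ratios of 3.39 and 5.03, or 5.61 and 9.78 without the 6. *Rsph14* had 1219 reads in 4 ciliated cells and 2 reads outside, a log2 ratio of 12.27 (10.41 to 15.31). *Rsph3a* and *Rsph3b*, copies 96.6% identical that can share reads, had log2 ratios of 2.65 and 3.73, or 2.98 and 4.2 without the 6, and *Rsph3b* had 128.5 CPM in ciliated cells. *Tekt1* had a median of 359 CPM over ciliated cells, a lowest value of 3.15 CPM and a highest value of 1948 CPM. Only 14 of the 120 other cells had a read of it, up to 80.4 CPM, and its log2 ratio was 4.83 with all columns and 8.98 without the 6. *Tekt4* and *Tekt2* had log2 ratios of 2.86 and 4.13, and of 9.49 and 8.80 without the 6. *Tekt5*, a tektin known from sperm, differed from the other tektins. All of its ciliated reads lay in 1 cell, with 210 CPM, its log2 ratio of 2.19 was close to the 4-fold limit, and without that cell it was -2.89 at 3 counts.

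Of the 18 Cfap genes, which encode assorted proteins of the axoneme and its base, 16 were at least 4-fold higher, with a median log2 ratio of 5.08, or 8.92 without the 6 axoneme cells. *Cfap126*, a protein of the doublet lumen, was read in all 15 ciliated cells from 2.71 to 1491 CPM, with a median of 712. Outside both groups its highest cell had 91.9 CPM, and its log2 ratio was 5.04, or 8.97 without the 6. *Cfap54*, of the central apparatus, had 529 CPM (513 to 545), and *Cfap45*, inside the doublets, 459 CPM (444 to 473), in 12 and 9 ciliated cells. *Cfap43* and *Cfap44*, known from infertility with short sperm tails, had 440 and 342 CPM. The 6 axoneme cells carried most reads of *Cfap43* outside the gate, up to 4879 CPM in 1 cell, and its log2 ratio was 3.99 with them and 6.12 without. Below 4-fold were *Cfap36*, with a log2 ratio of 1.53, and *Cfap97*. *Cfap97* had no read in the 15 ciliated cells, with an upper bound of 0.458 CPM, nor in the 6 axoneme cells. Another 15 cells held its 2288 reads, up to 2166 CPM in 1 cell. The log2 ratio was -6.56 with the ciliated count set to 3, and its upper bound was -6.26. *Cfap97* lies at chr8:46151771-46195590 and overlaps *Snx25* on the opposite strand.

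The Spag genes share only a name, from sperm antigens, and split by what their proteins do. *Spag17*, *Spag16* and *Spag6*, of the central apparatus, had 334, 120.7 and 67.3 CPM in ciliated cells. Their log2 ratios were 3.55, 5.86 and 2.49, and without the 6 axoneme cells 8.55, 11.33 (9.78 to 13.61) and 3.11. *Spag8*, a protein of the doublets, had 229 CPM and only 2 reads in the 120 other cells, a log2 ratio of 12.84 (10.98 to 15.88), against 7.11 with all columns. *Spag1*, which helps to assemble dynein arms, had 83.8 CPM and a log2 ratio of 2.80. The 3 that were not higher are a scaffold of JNK signalling, *Spag9*, with a log2 ratio of -0.64, a spindle protein, *Spag5*, and *Spag7*, with -0.12 (-0.32 to 0.07). *Spag5* had no read in ciliated cells and 171 reads in 5 other cells, a log2 ratio of -2.82 at 3 counts, with an upper bound of -2.50. Of these 5 cells 4 had 1 to 3 reads and 1 had 408 CPM, so the lower ratio rests on 1 cell.

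The IFT genes were higher in ciliated cells with a smaller gap, and many other cells also held reads. Of 14 genes, 11 were at least 4-fold higher, or 12 without the 6 axoneme cells, with medians of 2.81 and 2.99. *Ift43*, of IFT-A, had the most reads, 473 CPM (458 to 488) in ciliated cells and 70.3 CPM (68.3 to 72.3) in the other columns, where 32 of the 120 cells had a read. The highest other cell, with 1446 CPM, exceeded the highest ciliated cell, with 1314 CPM. *Ift172* and *Ift74*, of IFT-B, had 384 and 361 CPM and log2 ratios of 4.10 and 4.44. *Ift46* had 377 CPM and a log2 ratio of 2.77, or 2.99 without the 6. *Ift20*, which also serves at the Golgi apparatus, had 447 CPM (432 to 461) and a log2 ratio of 2.15, next to the 4-fold limit. By complex, all 11 IFT-B genes with an Ift symbol were at least 4-fold higher without the 6 cells. Their log2 ratios ran from 2.12 to 4.60. *Ift22* alone of them was below with all columns, at 1.07 against 2.69 without the 6, and 96.8% of its ciliated reads lay in 1 cell. Of the 3 IFT-A genes with an Ift symbol only *Ift43* was at least 4-fold higher. Neither count covers a whole complex, since other parts carry other symbols. *Ift122* was read in 1 ciliated cell, with a log2 ratio of 0.28 (-0.05 to 0.59). *Ift140* had 1 read in ciliated cells and 1081 outside, a log2 ratio of -7.06 (-12.37 to -4.58), with its outside reads in 6 of the 120 cells and 1 of the 6 axoneme cells. *Ift140*, at chr17:25016085-25099495, overlaps *Tmem204* on the opposite strand. Under other symbols, *Wdr19* and *Wdr35* of IFT-A had log2 ratios of 5.05 and 2.98. *Ttc21b*, with no ciliated read, had -4.42 at 3 counts, with an upper bound of -4.12. Of IFT-B, *Traf3ip1*, *Cluap1*, *Ttc30b* and *Ttc26* were at least 4-fold higher, while *Hspb11* (1.38), *Ttc30a1* (-2.36) and *Ttc30a2* (-3.43) were not. *Ttc26*, with a log2 ratio of 2.06, was read in only 1 ciliated cell. *Ttc30a1* had 3 ciliated reads, and the reads of *Ttc30a2* outside lay in 2 cells, up to 932 CPM. Transcripts of the 3 Ttc30 genes were not compared, and whether they share reads was not tested. *Ift22*, *Ift122*, *Ift140* and these genes under other symbols were singled out after their values were seen.

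BBSome and tectonic genes were low and patchy. Of the 6 Bbs genes, 4 were at least 4-fold higher, with a median log2 ratio of 2.34, or 2.59 without the 6, and none was read in over 5 of 15 ciliated cells. *Bbs9* had 117.5 CPM (110.1 to 125.2) in 5 ciliated cells and a log2 ratio of 2.14. Its level was near the limit, as was that of *Bbs7*, at 57.9 CPM and 1.89. *Bbs5* and *Bbs4* had log2 ratios of 3.10 and 2.55, the second 3.51 without the 6. *Bbs1* had 848 reads in 2 ciliated cells, 99.3% of them in 1, and 3 outside, a log2 ratio of 11.16 (9.61 to 13.44). Of the tectonics, *Tctn2* and *Tctn3* had log2 ratios of 3.01 and 2.82, the second 2.94 without the 6, and *Tctn1* 1.58. Each was read in 2 or 3 ciliated cells, and for *Tctn3* 94.8% of the ciliated reads lay in 1 cell, without which its log2 ratio was -1.40.

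*Dynlrb1* and *Dynlrb2* encode alternative roadblock light chains of the cytoplasmic dyneins, dynein-1 of the cell body and dynein-2, which returns IFT trains, and their ratios had opposite signs. *Dynlrb2*, at chr8:116504974-116515915, was read in all 15 ciliated cells, with 4.52 CPM at the lowest, 1546 CPM at the median and 10239 CPM at the highest. Its level was 1608 CPM (1580 to 1636) in ciliated cells and 15.2 CPM (14.3 to 16.2) in the other columns, a log2 ratio of 6.72. Without the 6 axoneme cells, all of which had a read, the log2 ratio was 8.17. *Dynlrb1*, at chr2:155236533-155250277, had 135.98 CPM (128.05 to 144.3) in ciliated cells and 235 CPM (231 to 239) in the other columns, a log2 ratio of -0.79 (-0.88 to -0.70). It was read in 8 of 15 ciliated cells, with a median of 0.828 CPM and a highest value of 816 CPM, and in 60 of the 120 other cells, up to 4441 CPM, so the groups overlapped throughout. Of the ciliated cells, 8 had reads of both genes, 7 of *Dynlrb2* only and 0 of *Dynlrb1* only. Of the 120 other cells, 18 had both, 42 *Dynlrb1* only, 17 *Dynlrb2* only and 43 neither. When each cell was thinned to 90000 reads, the ciliated cells numbered 4 with both, 1 with *Dynlrb1* only, 9 with *Dynlrb2* only and 1 with neither, and the others 6, 37, 12 and 65. Of 4 other subunits of dynein-1 tested none was at least 4-fold higher, with log2 ratios of 1.98 for *Dync1li1*, 0.75 for *Dync1i2*, -0.86 for the heavy chain *Dync1h1* and -5.90 for *Dync1li2*, which had 9 reads in ciliated cells and 4334 in the other columns. Of the dynein-2 subunits, *Dync2li1* and *Wdr60* had log2 ratios of 4.69 and 3.51, *Wdr34* of 1.54 and the heavy chain *Dync2h1* of 1.57, or 2.75 without the 6. These subunits were named after their values were seen.

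**Figure D4:**
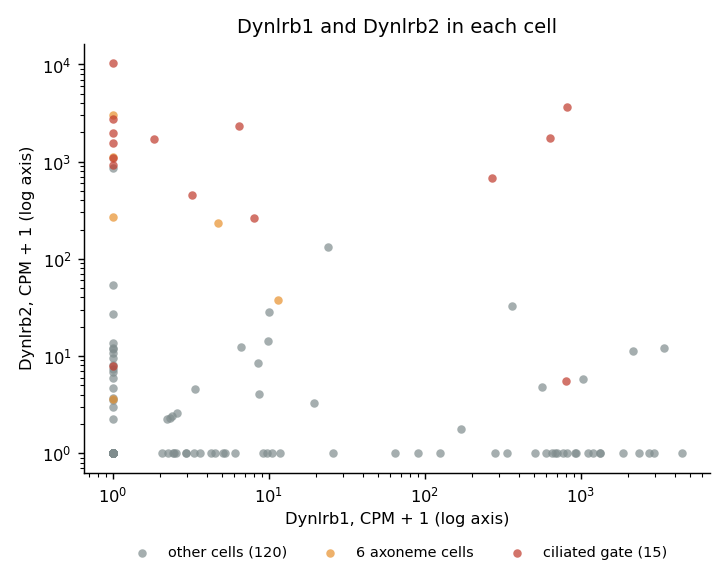
*Dynlrb1* (x axis) against *Dynlrb2* (y axis) in each cell, as CPM plus 1 on log axes, so a cell with no read lies at 1. Of the 15 ciliated cells (red) 13 lie above 100 CPM of *Dynlrb2*, with or without *Dynlrb1*, and 2 lie under 10 CPM, while 42 of the 120 other cells (grey) lie along the *Dynlrb1* axis with no read of *Dynlrb2*.

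No ciliated cell held all of the genes. A ciliated cell had a read of 20 to 46 of the 79, with a median of 37, and of 19 to 42, with a median of 33, after thinning to 90000 reads. Only *Cfap126*, *Dynlrb2*, *Rsph1* and *Tekt1* were read in all 15 ciliated cells, 20 genes in at least 10 and 17 in 1 to 3. For 45 genes the median ciliated cell had 0 reads. For 29 genes 1 cell held over 50% of the ciliated reads, and for 10 it held over 90%. The number of genes read in a ciliated cell after thinning went with its number of all genes read (Spearman 0.51, Pearson 0.51 over 15 cells of 1 library pool), which is a description only. A ciliated cell at chip column 4, row 4, carried 10239 CPM of the Dynlrb genes and 9669 CPM of the Rsph genes, both the highest of the 15, and 7.04 CPM of the Dnah genes, the lowest. It had 142003 reads, the fewest of the ciliated cells.

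By a rule set on the ciliated level, the other epithelial classes used few of the 79 genes. AT1 and AT2 cells line the alveolus, club cells are secretory cells of the airway and basal cells are its stem cells, each class here being the cells with at least 3 of 6 markers over 100 CPM. A class counted as using a gene when at least 25% of its cells had a read after thinning to 90000 reads and its CPM was at least 25% of that in ciliated cells. A gene at least 4-fold higher in ciliated cells can seldom meet the second limit. As 67 of the 79 genes were that high, against 14.3% of all genes tested, the shares of used genes below largely restate the ratios above. With cells that met exactly 1 gate (58 AT1, 22 AT2, 12 club and 1 basal), 10 of the 79 genes (12.7%) were used by a class, against 31.3% of all genes tested. The club class then held 2 of the 6 axoneme cells, and the use of *Cfap69*, *Dnah9*, *Spag17* and *Tctn1* by club cells was met only with them. *Ift52*, an IFT-B gene with 269 CPM in ciliated cells, was used by the single basal cell. With the 6 left out and every remaining cell of the basal gate counted as basal (10 club and 8 basal), 5 genes (6.33%) were used, against 35.2% of all genes tested. Of these 8 basal cells only 1 met the basal gate alone, and the rest also met the club gate. Basal and club are therefore not fully separate classes here. The 5 genes were *Dynlrb1*, *Spag9*, *Spag7*, *Ift20* and *Cfap97*.

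*Dynlrb1* was used by all 4 classes. After thinning it was read in 32.8% of AT1 cells (21 to 46.3), 31.8% of AT2 cells, 5 of 10 club cells and 2 of 8 basal cells, and in 33.3% of ciliated cells (11.8 to 61.6). Its CPM was 237 in AT1, 326 in AT2, 145 in club and 44.7 in basal cells, against 135.98 in ciliated cells. *Spag9* was used by AT1 cells, 39.7% of which had a read (27 to 53.4) at 62.2 CPM, and by AT2 cells, with 27.3% and 37.7 CPM. In ciliated cells it had 54.4 CPM, 92.5% of it from 1 cell. *Spag7* was used by AT2 cells only, with a read in 31.8% of them at 62.7 CPM, against 30.7 CPM in ciliated cells. *Ift20* was the only gene of intraflagellar transport on the list, used by AT1 cells, with a read in 32.8% of them (21 to 46.3) at 171 CPM (167 to 176). In AT2 cells *Ift20* was read in 27.3% of cells at 88.4 CPM, under 25% of its ciliated level. *Cfap97* was used by club cells, with a read in 3 of 10 and 69% of the reads in 1 of them. With no ciliated read of *Cfap97*, any level meets the CPM limit, so this use rests on the share of cells alone. Of the genes that these classes should lack, *Foxj1* and *Sntn* are given by class as background. *Foxj1* was read after thinning in 6.90% of AT1 cells and in 0 of the 22 AT2, 10 club and 8 basal cells, and *Sntn* in 5.17% of AT1 cells. The zeros allow shares of up to 15.4% in AT2, 30.8% in club and 36.9% in basal cells. In AT1 cells the lowest bound of a used gene was 21% and the upper bound of *Foxj1* 16.7%. Used genes were picked by a share of at least 25%, so this gap was partly set in advance. No separation from background is drawn from it. In AT2, club and basal cells the intervals of the shares overlap with these bounds even so. By share of cells, use there was not separated from background at this number of cells. By level, *Foxj1* and *Sntn* had at most 0.401 CPM in each of the 4 classes. Median depth was 434294 reads in AT1, 377466 in AT2, 806448 in club, 707162 in basal and 513842 in ciliated cells. The gate marker *Tppp3* was itself read in 81% of AT1 cells, so it does not separate these classes by its share of cells.

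**Figure D5:**
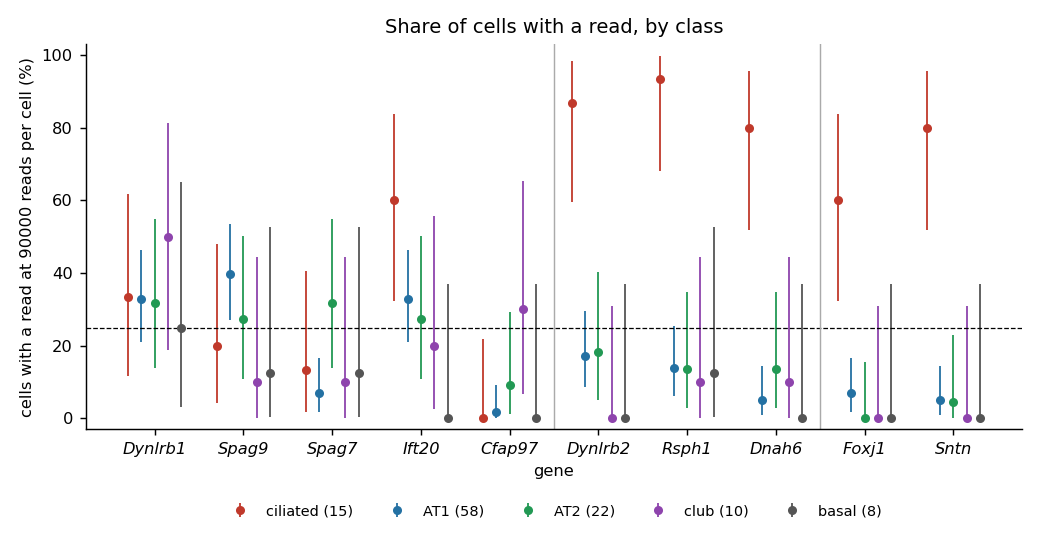
Share of cells with at least 1 read after each cell was thinned to 90000 reads, by class, with Clopper-Pearson 95% intervals. The 5 genes used by another class are on the left, 3 high members of the beating machinery or its transport in the middle and *Foxj1* and *Sntn* on the right, and the dashed line is 25%. For *Dynlrb1* the intervals of all 5 classes overlap, whereas for *Rsph1* the ciliated share of 93.3% lies above the upper bounds of every other class.

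In the 120 other cells the summed level of all 79 genes differed little with the place on the chip, while that of the genes with the highest ratios was lower away from ciliated cells in the median cell. The median sum of the 79 was 833 CPM in chip columns that hold a ciliated or axoneme cell and 759.8 CPM in the others, and 782 and 810 CPM by chip row. The 48 genes at least 16-fold higher without the 6 had a summed level of 25.8 CPM in the median cell of the first columns (90 cells, 14 columns). In the other columns (30 cells, 6 columns) the median cell had 2.09 CPM. Pooled over cells the sums were close, 105.4 and 108.1 CPM, and single cells reached 1647 and 2271 CPM. By chip row the medians of the 48 genes were 33.1 and 13.6 CPM. The summed 6 gate markers had medians of 114.1 and 4.94 CPM by column. In the 120 cells this sum is almost all *Tppp3*, with 42918 reads against at most 169 for each other marker, and *Tppp3* was also read in most AT1 cells. Whether reads passed between cells of a column was not tested.

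Genes of the same structures under other names had the highest median for the axoneme. Of 29 tested axoneme genes, 28 were at least 4-fold higher with all columns, with a median log2 ratio of 5.70, or 9.38 without the 6 axoneme cells, which were picked by genes of this list. *Nme9*, *Mlf1* and *Pifo* had the most reads, with 883, 758 and 696 CPM in ciliated cells. Of 11 genes for dynein assembly 7 were at least 4-fold higher, or 8 without the 6, with *Pih1d2* at 230 CPM, *Lrrc6* at 217 CPM and *Zmynd10* at 165 CPM. Of 30 transport genes 16 were at least 4-fold higher, or 18 without the 6, with medians of 2.15 and 2.52. *Dynll1*, a light chain shared by many complexes, had 1513 CPM and a log2 ratio of 2.24, *Dynlt1b* 444 CPM and 3.22, and *Traf3ip1*, the IFT54 protein of IFT-B, 370 CPM and 4.43, or 5.15 without the 6. Of 13 transition zone genes 12 were at least 4-fold higher, with a median of 3.03, or 3.52 without the 6. Of 10 regulators 5 were, among them *Myb* at 198 CPM with a log2 ratio of 5.34, *Foxj1* with 6.11 (6.47 without the 6) and *Rfx2*, an RFX factor, at 128.3 CPM with 3.82 (4.36 without the 6). *Rfx1*, with 1 ciliated read, and *E2f5*, with 3, were at least 4-fold lower, with log2 ratios of -6.91 and -4.64. *Rfx3*, with 0.91 (1.91 without the 6), *Rfx7* and *E2f4* lay between the limits. At least 4-fold lower with all columns were also 3 transport genes and 1 gene each of the axoneme, dynein assembly and transition zone lists. The higher counts stand beside the 14.3% of all genes tested, and the lower ones beside 35.2%.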

How the data were processed

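Reads of the single cells of 1 mouse were trimmed with Trim Galore, mapped to GRCm38 with HISAT2 and assigned to genes with featureCounts, per the labels, and the authors deposited whole-number read counts per gene and cell, without normalization. No versions and no strand setting are given in the sources used here. The 79 genes and the gene lists were chosen with earlier results of these data known. The counts of each class were added up and divided by the class total, giving CPM, and ratios were computed for the 14358 genes of 17136 with at least 1 read in 3 cells, with 0 counts set to 3. All 141 deposited cells were kept, including those over the 15% mitochondrial limit of the study, which analysed 92 cells. None of the 6 axoneme cells and 13 of the 15 ciliated cells were under that limit. No doublet caller was used, since the study checked sites by microscopy. For thinning, 90000 reads were drawn per cell, without replacement. Total reads ranged from 91402 to 2170760, which sets the precision of each value. With 1 mouse there is no test of any difference. Values are given for up to 5 genes a subfamily by most reads in ciliated cells, every gene used by another class, genes within a ratio of 1.2 of the 4-fold limit, genes with no ciliated read, and up to 3 examples of a pathway list. *Ift22*, *Ift122*, *Ift140*, *Dnah2*, *Dnah7a*, *Dnah7b*, *Dnah7c*, *Rsph3a* and *Cfap36* were named after their values were seen. So were pathway genes beyond 3 a list. Gene positions are those of GENCODE vM21, promoters those of RefSeq for GRCm38.p6, and transcripts were compared among the 79 genes with blastn. Listed markers that the table does not hold under the symbol searched, such as *Cd68* and *Mcidas*, were not analysed here. Python 3.11.15 with pandas 2.3.3, scipy 1.17.1, numpy 2.4.6 and matplotlib 3.10.9 was used, and R 4.3.3 with Seurat 5.3.0 and scran 1.30.0 for alternatives. The code for the ratios was checked on simulated counts, scored only for genes with a high mean level. This check does not cover genes with few reads. Alternatives changed the gate, the scaling, the depth, the minimum of cells and the columns compared, and those that leave out the 6 axoneme cells or add all basal gate cells were chosen after seeing the data.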

Additional observations from a re-analysis of the deposited data

How the results depend on the processing

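With 1 mouse, no difference carries a test, and the values below show only how far the choices move them. The number of genes at least 4-fold higher, 67, stayed between 55 and 68 under every alternative run at that limit. The 55 were of 63 genes with a read in at least 10 columns. Without the top ciliated cell of each gene, 56 of 79 remained. At other limits the counts were 49 (8-fold) and 72 (2-fold). All of these counts lie within 1.5 times of 67. The median log2 ratio of 3.68 was 8.26 with only cells under 15% mitochondrial reads (which removes all 6 axoneme cells), 7.29 with the ciliated-like Seurat cluster (which takes all 6 in), 6.12 without the 6 and 6.39 with the 6 counted as ciliated. It was 4.63 with a gate of 2 markers, 3.25 with 4, 3.97 with a gate at 50 CPM, 3.26 with mean CPM of single cells, 3.26 with scran size factors, 3.32 after thinning, 3.14 without the top cell of each gene and 4.07 against chip columns with no ciliated cell, and it stayed positive throughout. Leaving out 1 ciliated cell at a time gave 65 to 68 genes and medians of 3.53 to 3.86. Genes used by another class, 10 as reported first, were 5 under the mitochondrial limit, 6 with the cluster, 6 without the 6 axoneme cells, 6 with them counted as ciliated, 5 with all basal gate cells besides, 1 when use needed a read in 1 of 2 cells, and 18 in chip columns with no ciliated cell, which still hold axoneme cells. Leaving out 1 cell gave 10 to 11. Signs turned for *Dnah2*, to -3.12 with a gate of 4 markers and -2.93 at 200 CPM. For *Spag5* the ratio turned to 7.71 with the cluster, which takes in the cell with most of its reads (chip column 20, row 30). Without their top ciliated cell signs also turned for *Tctn3* (chip column 15, row 27), with -1.40 to 3.05 over cells left out, and *Tekt5* (chip column 17, row 23), with -2.89 to 2.42. The cause of these turns beyond the cell named was not tested. No paired analysis was possible because all cells are 1 group of 1 mouse.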
